A study of Equus caballus with 20 samples.

Results

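The expression of 8 genes of the MHC class II pathway was followed through the oviduct epithelium of mares: CD74 (the invariant chain), CIITA, RFX5, RFXAP, RFXANK, CTSS, LGMN and IFI30. They were chosen by symbol, and all 8 were found among the 26740 features of the deposited table. All 8 also passed the filter on low values, which kept 14692 features with more than 1 CPM (counts scaled to the library total) in at least 5 libraries. RNA sequencing had been done on 20 libraries of epithelial cells from Warmblood mares, taken 4 days after ovulation where the ampulla of the oviduct meets the isthmus. The mares were pregnant or cyclic (not pregnant), and an oviduct came from the ovulation side (ipsilateral) or the opposite side (contralateral). The 4 groups of 5 libraries are named PI (pregnant ipsilateral), PC (pregnant contralateral), CI (cyclic ipsilateral) and CC (cyclic contralateral), and a library by its group and number. The labels call the 5 libraries of a group biological replicates and do not say which libraries come from one mare.

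MHC class II molecules present peptides from endosomes to helper T cells. CD74 fills their peptide groove while they are assembled and guides them to endosomes. There LGMN (legumain) and CTSS (cathepsin S) cut CD74 down, and IFI30, a thiol reductase, opens disulfide bonds of the antigens. Transcription of CD74 and of the class II chains depends on CIITA, a coactivator that binds no DNA itself and is recruited by the RFX complex of RFX5, RFXAP and RFXANK. Dendritic cells, macrophages and B cells carry class II constitutively, whereas many epithelia gain it when interferon gamma induces CIITA.

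The libraries held 2795168 to 10126484 reads. Levels are the deposited normalized counts, which are not divided by gene length, so levels are not compared between genes. Defining epithelial genes were well covered: the adhesion genes CDH1 and EPCAM averaged 2977 and 1794 normalized counts over all 20 libraries, and the ciliary dynein gene DNAH5 23077. Only 4 of 8 listed epithelial symbols were found, and the oviduct glycoprotein OVGP1 averaged 4.84. A single feature, which has no symbol, took over 10% of the reads in PI1 (14.4%), PI4 (27.8%) and CI3 (15.4%), and the ipsilateral differences of CD74, CIITA, RFX5, CTSS and the class II chains are therefore also given without these 3 libraries. In bulk libraries, fewer cells of a type and less RNA per cell cannot be told apart.

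CD74 took 0.279% to 1.04% of the reads of a library. In PI1 to PI5 it stood at 48871, 26232, 43269, 57606 and 17571 normalized counts, and in PC1 to PC5 at 42623, 25435, 48385, 60917 and 26441. In CI1 to CI5 it stood at 58488, 19269, 19400, 18597 and 18043, and in CC1 to CC5 at 20520, 17222, 21923, 18343 and 25994. In each pregnant group numbers 1, 3 and 4 were high and numbers 2 and 5 low. Of the 10 cyclic libraries only CI1 reached the high pregnant level, and all 4 groups overlap. The group means were 40760 ± 15065 (SD, n = 5) in PC, 38710 ± 16460 in PI, 26759 ± 17745 in CI and 20800 ± 3433 in CC. Neighbours in this order differ by less than an SD of the more variable group.

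On the log2 scale CD74 differed between pregnant and cyclic mares by 0.90 ± 0.35 (SE; 95% interval 0.18 to 1.63) in the contralateral oviduct and by 0.59 ± 0.35 (−0.14 to 1.32) in the ipsilateral one. The mean of both oviducts, taken over 10 profiles averaged by status and number, differed by 0.75 ± 0.29 (0.12 to 1.38). That average pairs oviducts by number, and for cyclic numbers 3 and 4 the profiles paired did not deviate together (r = 0.02 and −0.04), so whether they come from 1 mare was not established. None of these passed the test (limma, adjusted p = 0.9998, 0.9991 and 0.9993), although the unadjusted p was 0.0175 on the contralateral side and 0.0241 for the mean. Single libraries weigh heavily: the ipsilateral difference was 0.91 without CI1, and 0.13 without PI1, PI4 and CI3. The 2 comparisons of status on single sides rest on different libraries, but in pregnant mares those libraries resemble each other number by number.

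**Figure D1:**
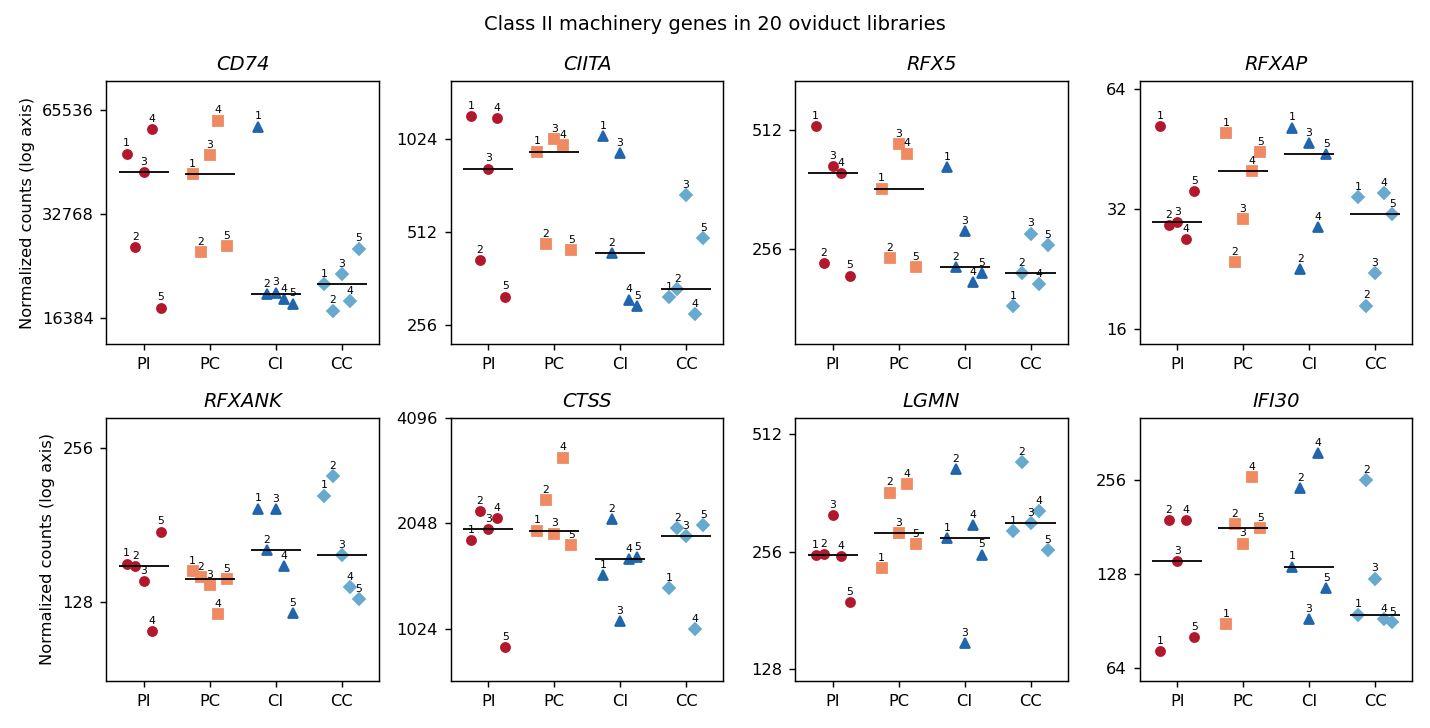
Normalized counts (log axis, a different range in each panel) of the 8 genes in the 20 libraries, by group (PI, PC, CI, CC), with the library number beside each point and a line at the group median. CD74, CIITA and RFX5 have the same low pair, numbers 2 and 5, in both pregnant groups, while RFXAP, RFXANK, LGMN and IFI30 order the libraries differently.

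CIITA, the coactivator on which class II transcription turns, showed the widest spread of the 8 genes, with an SD of 0.76 on the log2 scale over 20 libraries, against a median of 0.40 over all kept features. It stood at 1218, 416, 824, 1203 and 317 normalized counts in PI1 to PI5 and at 934, 468, 1026, 983 and 448 in PC1 to PC5. In CI1 to CI5 it stood at 1048, 438, 922, 310 and 295, and in CC1 to CC5 at 315, 334, 675, 277 and 491. As for CD74, pregnant numbers 1, 3 and 4 were the high ones on both sides, but among the cyclic libraries CI3 was high along with CI1. The group means were 796 ± 424 (SD, n = 5) in PI, 772 ± 289 in PC, 602 ± 356 in CI and 418 ± 165 in CC, and all groups overlap. The difference between pregnant and cyclic mares was 0.87 ± 0.42 (SE) contralaterally and 0.41 ± 0.42 ipsilaterally, with 0.64 ± 0.34 for the mean of both oviducts (limma, unadjusted p = 0.0517, 0.343 and 0.0883). Without PI1, PI4 and CI3 the ipsilateral difference was 0.076, and leaving out single libraries gave 0.20 (without CI5) to 0.69 (without PI5).

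RFX5 carries the part of the RFX complex that binds the X box of class II promoters. It stood at 523, 236, 414, 398 and 220 normalized counts in PI1 to PI5 and at 364, 243, 471, 446 and 231 in PC1 to PC5. In CI1 to CI5 the values were 411, 231, 285, 212 and 223, and in CC1 to CC5 they were 184, 223, 280, 209 and 262. The high and low pregnant libraries were those of CD74 and CIITA, and CI1 again stood above the other cyclic libraries. The contralateral difference between pregnant and cyclic mares was 0.55 ± 0.25 (limma, unadjusted p = 0.0432, adjusted p = 0.9998). Ipsilaterally it was 0.36 ± 0.25, and over the mean of both oviducts 0.45 ± 0.21 (unadjusted p = 0.174 and 0.0503). Without PI1, PI4 and CI3 the ipsilateral difference was 0.10.

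The other RFX subunits did not share this picture. RFXAP, the RFX-associated protein, rested on 16 to 68 reads per library and averaged 34.5 ± 10.02 (SD, n = 5) normalized counts in PI, 37.5 ± 10.5 in PC, 38.7 ± 12.3 in CI and 28.1 ± 7.54 in CC. RFXANK, the ankyrin-repeat subunit, was the least variable of the 8 genes, with 112 to 226 normalized counts in the 20 libraries and an SD of 0.26 on the log2 scale. Its means were 146 ± 23.0 in PI, 139 ± 10.02 in PC, 165 ± 30.9 in CI and 172 ± 42.7 in CC. Pregnant minus cyclic, RFXANK differed by −0.16 ± 0.17 (SE) ipsilaterally and by −0.27 ± 0.17 contralaterally, a sign opposite to that of RFX5. For RFXAP the same differences were −0.13 ± 0.26 and 0.37 ± 0.26.

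Of the endosomal enzymes, CTSS, which makes the last cuts in CD74, stood at 1837, 2218, 1971, 2122 and 911 normalized counts in PI1 to PI5 and at 1953, 2380, 1914, 3152 and 1774 in PC1 to PC5. In CI1 to CI5 it stood at 1460, 2103, 1081, 1616 and 1644, and in CC1 to CC5 at 1341, 1989, 1887, 1024 and 2024. PI5 was the lowest and PC4 the highest of all libraries, and the groups overlap. Unlike CD74, CTSS was not low in pregnant number 2, which had the highest value in PI and the second highest in PC. The difference between pregnant and cyclic mares was 0.16 ± 0.25 (SE) ipsilaterally, 0.45 ± 0.25 contralaterally and 0.31 ± 0.20 over the mean of both oviducts. Without PI1, PI4 and CI3 the ipsilateral one was −0.092.

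LGMN, an asparaginyl endopeptidase that can start the cutting of CD74, had means of 252.2 ± 45.01 (SD, n = 5) normalized counts in PI, 306 ± 63.8 in PC, 279 ± 96.2 in CI and 322 ± 67.2 in CC. Its lowest library was CI3 (149) and its highest CC2 (434). IFI30 averaged 135 ± 57.4 in PI, 175 ± 62.1 in PC, 180 ± 94.1 in CI and 131 ± 71.2 in CC, and ran from 72.6 in PI1 to 313 in CI4. Neither gene separated the groups. Pregnant minus cyclic, LGMN differed by −0.09 ± 0.22 (SE) ipsilaterally and −0.07 ± 0.22 contralaterally, while IFI30 differed by −0.36 ± 0.37 and 0.45 ± 0.37.

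**Figure D2:**
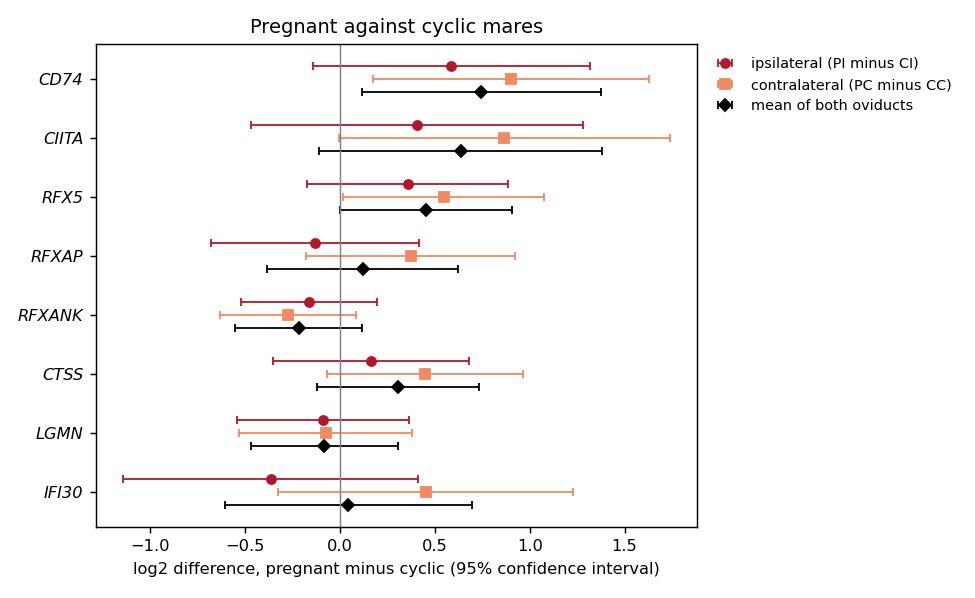
Log2 difference of each gene between pregnant and cyclic mares with its 95% confidence interval from limma (5 against 5 libraries on each side, 5 against 5 averaged profiles for the mean). The intervals of CD74 for the contralateral oviduct (0.18 to 1.63) and the mean (0.12 to 1.38), and that of RFX5 for the contralateral oviduct (0.02 to 1.08), lie above 0. All others include it.

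Counted together, 4 of the 8 genes were higher and 4 lower in pregnant mares in the ipsilateral oviduct, with a median log2 difference of 0.04 (−0.01 over all kept features). That median was −0.01 under scaling to library totals and −0.05 without PI1, PI4 and CI3. In the contralateral oviduct 6 were higher and 2 lower, with a median of 0.45 (0.01 over all features), and for the mean of both oviducts 6 and 2, with 0.21. None of the 8 was called in any of the 6 comparisons at an adjusted p of 0.05 in limma, where 0% of all kept features were called in each. At an unadjusted p under 0.05, 0 of 8 were higher in pregnant mares ipsilaterally, where 1.5% of all features were. Contralaterally 2 of 8 were (CD74 and RFX5), against 2.75% of all features, and for the mean 1 of 8 (CD74), against 2.25%. These counts moved with single libraries. The contralateral one was 0 without PC4 or with PTPRC as covariate, 1 without PC1, PC3, CC1, CC2 or CC4 or under scaling to library totals, and 3 without PC2, PC5 or CC3, with the replicate block, in edgeR or in DESeq2. For the mean it was 0 without pregnant number 1, 3 or 4, without cyclic number 2 or 4 or with PTPRC as covariate, 3 without pregnant number 2, without cyclic number 3 or with no replicate block, and 4 without pregnant number 5. Ipsilaterally it was 1 without PI5 or CI1. The groups of none of the 8 were free of overlap, as against 0.191%, 0.313% and 0.177% of all features with every pregnant value above every cyclic one.

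Across all kept features limma's unadjusted p was under 0.05 for 514 ipsilaterally, 669 contralaterally and 649 for the mean. The other tools, run on the recovered whole reads in the comparisons between libraries, called 0 of the 8 genes. edgeR called 0 features on either side, and DESeq2 called 0 ipsilaterally and 6 contralaterally. In DESeq2, CD74 differed contralaterally by 0.95 with an adjusted p of 0.452, the smallest of the 8 genes there.

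The side of ovulation was compared within each status. In pregnant mares 2 of the 8 genes were higher and 6 lower on the ipsilateral side, with a median of −0.11 that was −0.02 without PC4 and −0.31 without PI1, PI4 and CI3. In cyclic mares 5 were higher and 3 lower, with a median of 0.20 that was 0.01 without CI1. At an unadjusted p under 0.05 none of the 8 differed in either status, against 0.762% of all features in pregnant and 0.286% in cyclic mares (limma, 112 and 42 features). edgeR and DESeq2 called no feature in either. These fits did not pair the oviducts by number. With the replicate block 464 and 240 features had an unadjusted p under 0.05 in limma, and none was called. CD74 differed between the sides by −0.12 ± 0.35 (SE) in pregnant and 0.20 ± 0.35 in cyclic mares, and CIITA by −0.06 ± 0.42 and 0.40 ± 0.42. Without CI1 the cyclic difference of CD74 was −0.13, and that of CIITA 0.15.

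In pregnant mares the oviducts with the same number lay close to each other for CD74: ipsilateral minus contralateral was 0.20, 0.04, −0.16, −0.08 and −0.59 on the log2 scale for numbers 1 to 5. These gaps are small beside the spread between pregnant numbers, whose averages over both sides ran from 21550 to 59240 normalized counts. For CTSS the 5 gaps were −0.09, −0.10, 0.04, −0.57 and −0.96, with the larger ones in numbers 4 and 5. LGMN was lower on the ipsilateral side in 5 of 5 cyclic numbers, with gaps of −0.06, −0.06, −1.01, −0.12 and −0.04 for numbers 1 to 5, for a group difference of −0.26 ± 0.22. That difference was −0.05 without CI3. Whether equal numbers of cyclic libraries mark one mare is doubtful, since numbers 3 and 4 did not resemble each other across sides more than other numbers did.

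**Figure D3:**
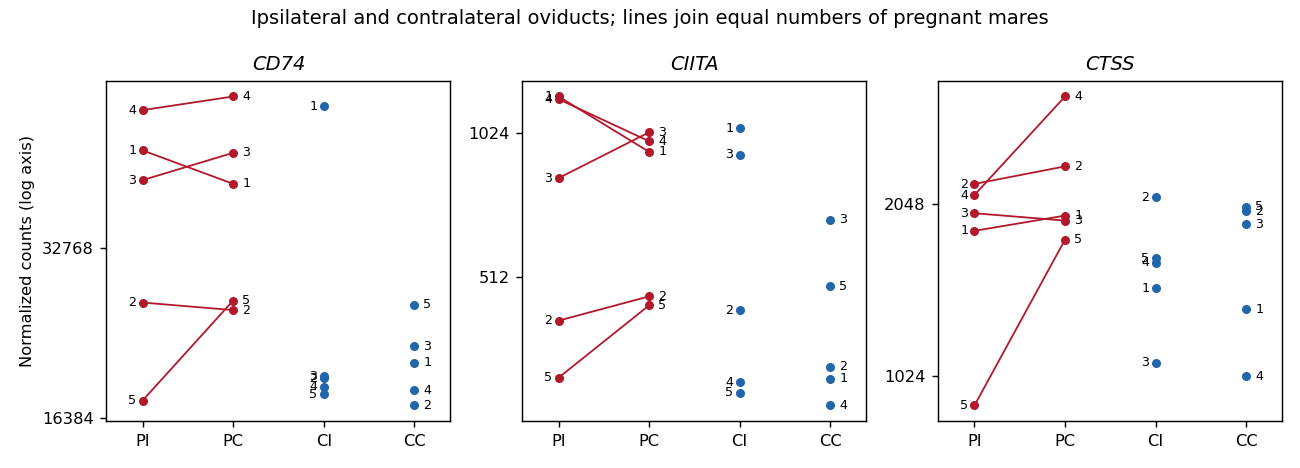
Normalized counts (log axis) of CD74, CIITA and CTSS in each library by group, with the number beside each point. Lines join equal numbers of pregnant mares, and for CD74 and CIITA numbers 1, 3 and 4 stay above numbers 2 and 5 on both sides, whereas for CTSS number 5 lies lowest on both sides. Cyclic numbers are not joined.

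The interaction asked whether the effect of pregnancy differs between the sides. It was negative for 7 of the 8 genes, with a median of −0.30, against −0.04 over all features. The median was −0.06 without PI5, −0.12 without CI1, −0.15 without PC4 or with PTPRC as covariate, and −0.53 without PI1, PI4 and CI3. Without CI1 the interaction was negative for 5 of the 8. At an unadjusted p under 0.05 it held none of the 8, against 0.32% of all features (limma, 47 features). Neither edgeR nor DESeq2 called any feature. The largest in size was that of IFI30, −0.82 ± 0.53 (SE), followed by RFXAP with −0.50 ± 0.37 and CIITA with −0.46 ± 0.59. For CD74 it was −0.32 ± 0.49, and 0.01 without CI1.

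Over the libraries some of the 8 genes varied together and others did not. The following Pearson r are descriptions over 20 libraries on the log2 scale. They carry no p, since 2 oviducts of a mare are not independent and all libraries share the 4 groups. CD74 had r = 0.91 with RFX5 and 0.86 with CIITA, and RFX5 had 0.93 with CIITA. After subtraction of the group means these were 0.88, 0.83 and 0.92. With CTSS the r of CD74 was 0.49, and with RFXAP 0.34. IFI30 and LGMN gave 0.04 and 0.02, and RFXANK −0.38.

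CTSS, LGMN and IFI30 had r of 0.56 to 0.63 among themselves. With the class II chain DRA their r were 0.71, 0.42 and 0.41. Their levels also followed the number of reads of a library: r with log2 total reads was 0.80 for IFI30, 0.65 for LGMN and 0.56 for CTSS, and −0.50 for RFXAP. For CD74, CIITA and RFX5 it was −0.03, −0.14 and −0.10. With the leukocyte gene CSF1R the r of CTSS, LGMN and IFI30 were 0.78, 0.60 and 0.56. With PTPRC, another leukocyte gene, they were 0.66, 0.31 and 0.28. The part of depth and of leukocytes in the levels of the enzymes was not tested.

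**Figure D4:**
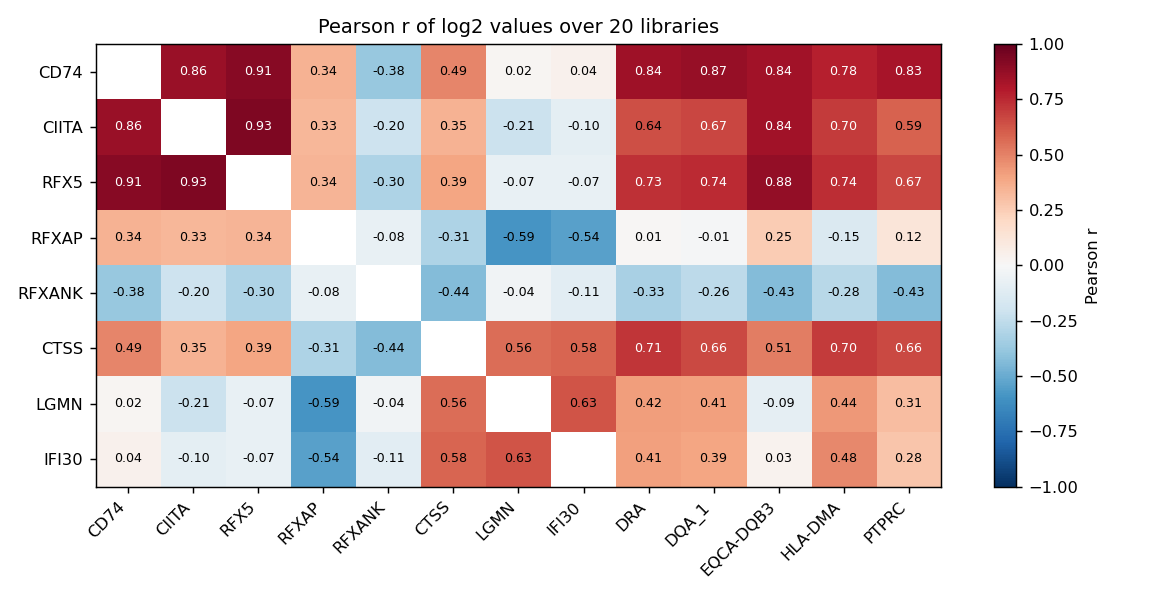
Pearson r of log2 normalized counts over 20 libraries between each of the 8 genes (rows) and the 8 genes, 4 class II chains and PTPRC (columns), coloured from −1 (blue) to 1 (red). CD74, CIITA and RFX5 share high values with each other and with the class II chains, whereas the rows of RFXAP, RFXANK, LGMN and IFI30 do not. CTSS has 0.51 to 0.71 with the 4 chains, against 0.64 to 0.84 for CIITA, but 0.35 to 0.49 with CD74, CIITA and RFX5.

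The kept features most like CD74 in pattern over the 20 libraries were ZBP1 (r = 0.96), a sensor of unusual nucleic acids, C2 (0.96), a complement protease, PLAC8 (0.94), PARP9 (0.94) and EPSTI1 (0.93). CIITA was most like NLRC5 (0.94), a relative of CIITA that activates class I genes, then ETV7 (0.94) and RFX5 (0.93). RFX5 was most like ZBP1 (0.96), the interferon regulatory factor IRF7 (0.96) and IFIT1 (0.95), an interferon-induced antiviral gene.

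For the enzymes and the other RFX subunits the lists had no gene in common with these. Among the features nearest to CTSS was TUBB2B (0.91). LGMN was most like TGIF2-C20orf24 (0.89), CTH (0.88) and SFT2D1 (0.88), and IFI30 like EMC6 (0.92), ABCB10 (0.91) and KATNA1 (0.91). RFXAP was nearest to BCL11A (0.82), CNTLN (0.81) and BOD1L1 (0.81), and RFXANK to OBSL1 (0.86), CABLES1 (0.86) and ARHGEF17 (0.85).

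The class II chains are the cargo of CD74. Of 10 listed chains 7 were found, as 11 features, because DRB, DQA and DQB appear as DRB_1, DRB_2, EQCA-DRB2, DQA_1, DQA_2, DQA_3 and EQCA-DQB3. Reads of such copies may have been split between them, so the values of single copies are uncertain. DRA, the alpha chain of DR, stood at 4340, 3805, 6358, 5328 and 2214 normalized counts in PI1 to PI5 and at 4356, 3943, 6185, 8694 and 4720 in PC1 to PC5. In CI1 to CI5 it stood at 7601, 3693, 2012, 3291 and 2690, and in CC1 to CC5 at 2605, 3900, 4198, 2460 and 4064. CI1 and PC4 were the highest and CI3 the lowest. DRA differed between pregnant and cyclic mares by 0.26 ± 0.32 (SE) ipsilaterally and 0.67 ± 0.32 contralaterally, and DQA_1 by 0.45 ± 0.45 and 0.89 ± 0.45.

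All 11 chain features were higher in pregnant mares on both sides, against 48.1% of all kept features ipsilaterally and 51.8% contralaterally, with medians of 0.45 and 0.88, and none was called in limma, edgeR or DESeq2. Ipsilaterally 7 of 11 were higher, with a median of 0.03, without PI1, PI4 and CI3, whereas the median was 0.87 without CI1. Contralaterally 10 of 11 were, with a median of 0.49, without PC4. At an unadjusted p under 0.05 in limma there was 1 higher ipsilaterally, against 1.5% of all features, and there were 3 contralaterally, against 2.75%. The contralateral count was 1 without PC3, PC4 or CC1, 6 without PC1, and 7 in edgeR and in DESeq2, and the ipsilateral one was 0 without PI1, PI3, PI4 or CI4 and 3 without CI1. EQCA-DQB3, named after its values were seen, was past that limit on both sides, with 0.97 ± 0.38 ipsilaterally and 1.26 ± 0.38 contralaterally (adjusted p = 0.9991 and 0.9998). DQA_1 was the only chain whose groups did not overlap, in the contralateral oviduct, with 2380 as the lowest PC value and 2254 as the highest CC value (0.313% of all features there). In pregnant mares all 11 were lower on the ipsilateral side, with a median of −0.32 that was 0.00 without PC4. In cyclic mares 8 were higher and 3 lower, but under scaling to library totals 5 and 6, and without CI1 3 and 8.

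CIITA parted from CD74, DRA and the sum of the chains in one library. CI3 had the second highest CIITA level of the 10 cyclic libraries, 922 normalized counts from 512 reads, with NLRC5 at 1055 and IRF1 at 708. Yet it had 2012 for DRA, the lowest of all libraries, and a sum of 5689 over the chains, the lowest of the cyclic ipsilateral group. Its CD74, 19400, was not high along with CIITA, but lay close to that of CI2, CI4 and CI5 (19269, 18597 and 18043). Single chains differed: within its group CI3 was lowest for DRA and DQA_1 and second lowest for most others. It was second highest for EQCA-DQB3 (398), DQA_3 (148) and HLA-DOB (12.6). CI3 also had the lowest PTPRC of all libraries, 100.9. It held 3856941 reads, 15.4% of them from the single feature without a symbol. NLRC5, IRF1, DQA_3 and HLA-DOB were named here after their values were seen. CI1, with a similar CIITA level, had 58488 for CD74, a chain sum of 21610 and 498 for PTPRC.

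**Figure D5:**
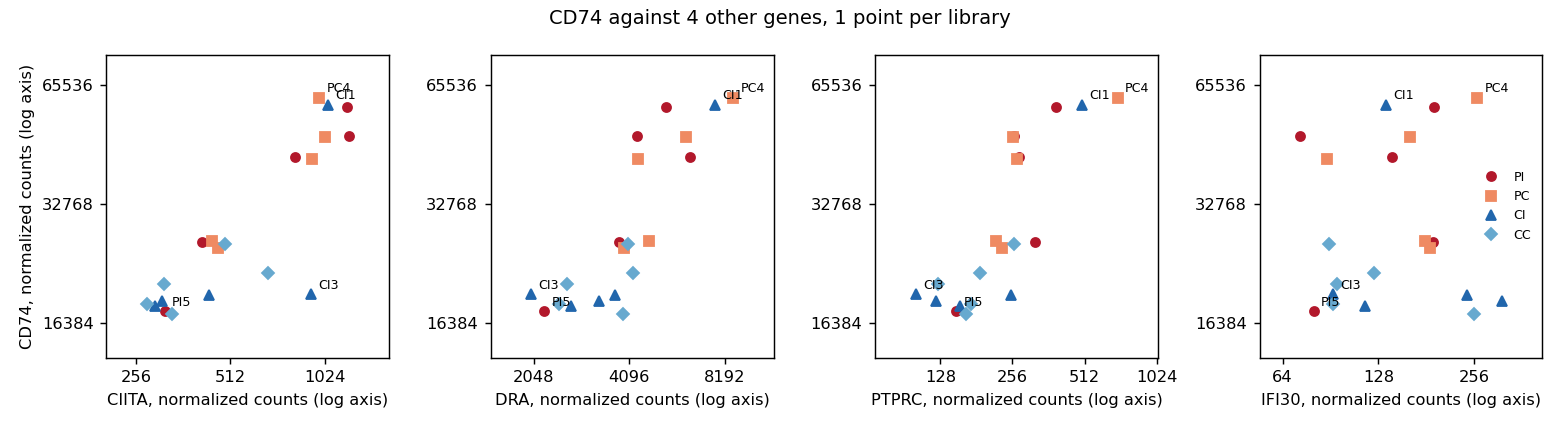
CD74 (vertical axis) against CIITA, DRA, PTPRC and IFI30 (horizontal axes), all in normalized counts on log axes, 1 point per library, coloured by group and with CI1, CI3, PC4 and PI5 named. CD74 is higher where CIITA (r = 0.86), DRA (0.84) and PTPRC (0.83) are higher. CI3 lies off the first of these, with high CIITA but CD74 near that of CI2, CI4 and CI5. IFI30 (0.04) shows no such order.

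Genes that control CIITA were described from a list of 18 enhanceosome partners and regulators, of which 16 were measured. In pregnant mares 8 of 16 were higher ipsilaterally and 11 of 16 contralaterally, with medians of 0.00 and 0.06, and none was called. CREBBP, a histone acetyltransferase that CIITA recruits, varied little, with group means of 2897 to 3006, and gave differences of −0.01 ± 0.11 (SE) ipsilaterally and −0.05 ± 0.11 contralaterally. PRDM1, a repressor of CIITA named after its values were seen, differed by −0.64 ± 0.23 ipsilaterally and −0.46 ± 0.23 contralaterally (limma, unadjusted p = 0.0109 and 0.0597, adjusted p = 0.9991 and 0.9998). These were the lowest of the 16, whose highest were 0.62 and 1.13. At an unadjusted p under 0.05 in limma 1 of the 16 was higher and 1 lower ipsilaterally, against 220 and 294 of 14692 features. Contralaterally 0 were higher and 0 lower, against 404 and 265 features.

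Of 14 genes of interferon gamma signalling 10 were kept, 5 of them higher in pregnant mares ipsilaterally (median 0.13) and 7 contralaterally (0.57), none called. IFNG itself was at 0 in 16 of 20 libraries and fell below the filter, where 3 reads, the limit that a count of 0 allows, correspond to 1.75 to 7.03 normalized counts. JAK1, the kinase of its receptor, differed by −0.19 ± 0.23 and −0.04 ± 0.23.

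Of 11 other endosomal proteases listed 8 were kept, 1 of them higher in pregnant mares ipsilaterally (median −0.27) and 3 contralaterally (−0.08), none called. CTSH and CTSB, an aminopeptidase and a broad cysteine protease of lysosomes, differed by −0.04 ± 0.34 and −0.15 ± 0.22 ipsilaterally, and by 0.20 ± 0.34 and 0.10 ± 0.22 contralaterally. Of 10 protease inhibitors and genes of class II turnover 8 were kept, 3 higher ipsilaterally (median −0.09) and 7 contralaterally (0.19), none called. Its most abundant members, the tetraspanins CD9 and CD63, differed by −0.09 ± 0.22 and −0.21 ± 0.32 ipsilaterally and by 0.13 ± 0.22 and 0.24 ± 0.32 contralaterally.

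At the cell surface CD74 can also bind the cytokine MIF, with CD44 as the signalling partner. Of 7 listed partners 4 were kept, 0 of them higher in pregnant mares ipsilaterally and 2 contralaterally, none called. CD44 had differences of the opposite sign to those of CD74. It averaged 1586 ± 430 (SD, n = 5) normalized counts in PI, 1627 ± 488 in PC, 2534 ± 987 in CI and 2485 ± 1003 in CC, with differences of −0.65 ± 0.29 (SE) and −0.59 ± 0.29 (limma, adjusted p = 0.9991 and 0.9998). MIF differed by −0.02 ± 0.28 and 0.12 ± 0.28.

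Leukocyte markers were measured beside CD74, since several kinds of leukocyte carry class II. PTPRC, the pan-leukocyte gene, had r = 0.83 with CD74, 0.59 with CIITA, 0.67 with RFX5 and 0.66 with CTSS, and 0.31 with LGMN and 0.28 with IFI30. With CSF1R, a macrophage receptor, r was 0.78 for CTSS, 0.60 for LGMN, 0.56 for IFI30 and 0.51 for CD74. PTPRC ranged from 149 to 388 normalized counts in PI, 218 to 704 in PC, 100.9 to 498 in CI and 125 to 260 in CC. Between pregnant and cyclic mares PTPRC differed by 0.48 ± 0.38 (SE) ipsilaterally and 0.76 ± 0.38 contralaterally. With log2 PTPRC as a covariate the differences of CD74 were 0.25 and 0.37, and the class II chains had medians of −0.03 and 0.14.

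The level of CD74 relative to PTPRC was compared by itself, as log2 CD74 minus log2 PTPRC. It was 7.05 ± 0.46 (SD, n = 5) in PI and 6.94 ± 0.49 in CI, and 6.99 ± 0.44 in PC and 6.84 ± 0.28 in CC. The differences were 0.11 ipsilaterally and 0.15 contralaterally, with p = 0.714 and 0.548 in a two-sided exact permutation test (both 0.714 after Benjamini-Hochberg adjustment over 2 tests, smallest possible p 0.00794). Leaving out single libraries moved the differences from −0.07 to 0.28 and from 0.01 to 0.28.

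Of 18 markers of monocytes, macrophages and dendritic cells 17 were found, and their sum was 904 to 3090 normalized counts in PI, 1277 to 4291 in PC, 1006 to 2576 in CI and 1075 to 2437 in CC. Of the 15 kept, 6 were higher in pregnant mares ipsilaterally and 12 contralaterally, with medians of −0.02 and 0.19. The lowest differences were −0.69 and −0.81, and the highest 0.31 and 0.69. At an unadjusted p under 0.05 in limma 0 were higher and 1 lower on each side. Of all 14692 features 220 were higher and 294 lower ipsilaterally, and 404 and 265 contralaterally. CSF1R differed by −0.13 ± 0.38 and 0.19 ± 0.38, and the complement gene C1QB by 0.13 ± 0.39 and 0.51 ± 0.39. CLEC9A, of cross-presenting dendritic cells, was at 0 in 18 of 20 libraries.

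In adult horses T cells, too, carry class II. Markers of T and NK cells were found for 11 of 12 and summed to 202 to 569 in PI, 320 to 1072 in PC, 191 to 654 in CI and 181 to 384 in CC. They were higher in pregnant mares in 10 of 11 ipsilaterally (median 0.80) and 11 of 11 contralaterally (0.96), none called in limma. At an unadjusted p under 0.05, 3 of 11 were higher ipsilaterally, 6 contralaterally and 7 for the mean of both oviducts. The shares of all features were 1.5%, 2.75% and 2.25%. For CD2, alone of the 11, every PC value lay above every CC value, as it did for 0.313% of all features. CD4, the helper T cell coreceptor, differed by 0.26 ± 0.31 and 0.59 ± 0.31, and CD2 by 0.85 ± 0.37 and 1.14 ± 0.37. B cell markers were at or near 0: MS4A1 had no read in 19, PAX5 in 17 and CD79B in 16 of 20 libraries, and of 10 found only 3 were kept, with BLNK at 87.0 normalized counts on average. The sum of the B cell list was 53.2 to 159 in PI, 76.5 to 170 in PC, 86.5 to 154 in CI and 76.4 to 134 in CC.

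Markers of other cell types were measured in the same libraries. Fibroblast markers were lower in pregnant mares in 7 of 7 on both sides, with medians of −0.42 ipsilaterally and −0.40 contralaterally, and their sum ranged from 825 in PI1 to 6399 in CC2. Multiciliated cell markers were higher in 5 of 5 kept on both sides, with medians of 0.28 and 0.29. Of 5 endothelial markers 4 were higher ipsilaterally (median 0.51) and 5 contralaterally (0.09). Of 5 smooth muscle markers 3 were higher on each side (0.14 and 0.10). None of these markers was called in limma. The part of leukocytes and of these other cells in the differences of CD74 was not tested.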

How the data were processed

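The deposited table gives a signal per gene: counts that the authors scaled by 1 TMM factor per library, as its values and its name show. CASAVA 1.8 is given in the submitters' processing notes. Per the labels' protocols the kit was a stranded total RNA kit with ribosomal RNA depletion, while another label gives polyA RNA. The aligner, counter, strand setting, build and annotation were not given in the sources used here. Overlapping genes are therefore uncertain, and no coordinates or sequences are printed. Whole reads were recovered: 100% of the deposited values were whole multiples of 1 read within 0.01 reads.

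Features above 1 CPM in at least 5 libraries were tested with limma 3.58.1 (R 4.3.3; 4 group means, trend and robust moderation, two-sided, Benjamini-Hochberg over 14692 features) on log2(value + 3.03), a pseudocount of 0.5 CPM, so fold changes of low genes are understated. edgeR 4.0.16 and DESeq2 1.42.0 on recovered reads, another pseudocount, filter and scaling, PTPRC as covariate, a replicate block and left-out libraries were alternatives. The procedure was tested on simulated data. CD74 relative to PTPRC was compared by an exact permutation test in Python 3.11.15 (252 arrangements). The 95% intervals are limma's and rest on the spread between libraries, whereas the limit that a count of 0 allows covers counting error only.

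The 8 genes and all lists were chosen with earlier results of these data known. Named genes are the 8, the 2 most abundant kept members of each list, and the 5 (CD74) or 3 features with a symbol most correlated with each gene. A few of the genes so chosen are not reported here. Copies of class II chains were matched after their symbols were seen.

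Equal numbers were checked as pairs. Same-numbered oviducts of pregnant mares deviated together (r = 0.53 to 0.70 for 5 of 5 numbers), those of cyclic mares in 3 of 5 (0.29, 0.68, 0.02, −0.04 and 0.62).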

Additional observations from a re-analysis of the deposited data

Results flagged for a closer look

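Of 32 sets of 5 libraries (8 genes in 4 groups), 2 held a library far from the other 4. The gap to the nearest library was taken as a share of the group's range, both on the log2 scale, with a limit of 0.71. Chance flags about 1 set in 20. CD74 stood at 58500 normalized counts in CI1, against 18000 to 19400 in CI2 to CI5, a gap of 0.938 of the log2 range. CI1 also had the highest CIITA (1048), RFX5 (411), class II chain sum (21610) and PTPRC (498) of the cyclic ipsilateral libraries. CTSS stood at 911 in PI5, against 1840 to 2220 in PI1 to PI4, a gap of 0.788 of the log2 range. PI5 also had the lowest CD74 (17571), CIITA (317), chain sum (5646) and PTPRC (149) of the pregnant ipsilateral libraries.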

How the results depend on the processing

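Of 1024 values of the 8 genes under alternatives 965 kept their direction and 59 reversed, and none passed the threshold. The number of features called in the contralateral comparison of pregnant with cyclic mares was 1 with CPM without TMM and 6 with DESeq2. For the mean of both oviducts 16 were called with no replicate block, among them none of the 8 genes. The replicate block changed no call. It gave 0 features in the 5 comparisons between libraries, with 558, 719, 464, 240 and 267 at an unadjusted p under 0.05.

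The ipsilateral minus contralateral difference in pregnant mares was 0.011 for CD74 and 0.040 for CIITA with PTPRC as covariate, 0.064 (edgeR) and 0.085 (DESeq2) for CIITA, −0.047 (CPM) and −0.27 (without PI1, PI4 and CI3) for RFX5. Without these libraries CTSS was −0.092 for pregnant against cyclic mares ipsilaterally and 0.080 for the sides of cyclic mares, and RFXAP −0.011 for the mean of both oviducts. With PTPRC as covariate CTSS was −0.018 ipsilaterally and −0.019 for the mean, IFI30 −0.23 for the mean and the LGMN interaction 0.053. With CPM IFI30 was −0.013 for the mean and the LGMN interaction 0.00068.

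Leaving out single libraries gave signs of both kinds between the sides of pregnant mares for CD74 (−0.29 to 0.14), CIITA (−0.26 to 0.22), RFX5 (−0.14 to 0.17), RFXAP (−0.25 to 0.0027) and RFXANK (−0.0015 to 0.16), and of cyclic mares for CD74 (−0.13 to 0.29), RFXANK (−0.13 to 0.063) and CTSS (−0.21 to 0.080). It did so for the interaction in CD74 (−0.49 to 0.011) and LGMN (−0.22 to 0.15). For pregnant against cyclic mares it did so in LGMN ipsilaterally (−0.29 to 0.073), contralaterally (−0.16 to 0.038) and for the mean (−0.19 to 0.056), for the mean in RFXAP (−0.023 to 0.21) and IFI30 (−0.11 to 0.25), and for CD74 relative to PTPRC ipsilaterally (−0.066 to 0.28). The cause was not tested. In pregnant against cyclic mares CD74 was 0.41 to 0.91 ipsilaterally and 0.74 to 1.05 contralaterally, CIITA 0.20 to 0.69 and 0.74 to 1.06, and RFX5 0.20 to 0.52 and 0.43 to 0.68. RFXAP, at 16 to 68 reads, is the gene whose depth limits it most of the 8.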
